A study of Mus musculus with 8 samples.

Results

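Transcripts of the bicarbonate carriers Slc4a2, Slc4a3 and Slc4a4, the chloride cotransporter Slc12a2 and the carbonic anhydrase family genes Car2, Car8 and Car10 were followed in sorted mouse astrocytes. These 7 genes, of 55417 in the count tables, were matched by Ensembl identifier, and all 7 passed the filter on low counts that 11781 genes passed. They were chosen by function and by their cortical and subcortical levels in these same libraries, so their regional values are a description and carry no test. Astrocytes were flow sorted from cortical or subcortical tissue of 4 wild-type (WT) mice at postnatal day 29, with no treatment named in the labels. Mice 1 and 4 were male and mice 2 and 3 female, and each gave 1 cortical and 1 subcortical library, named here by region and mouse number. The sources used here do not give the gate or reporter of the sort. Libraries were read from transcript 3′ ends, about 1 fragment per transcript whatever its length, so levels of different genes are compared without a length correction. Levels are counts-per-million (CPM) values, with each library's size scaled by the trimmed mean method (TMM), and log2 differences are cortical minus subcortical.

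Astrocytes carry bicarbonate across their membrane together with sodium and so buffer the extracellular pH when neurons are active. Proteins of the SLC4 family do this work, some bringing in sodium with bicarbonate and others exchanging bicarbonate for chloride, while the sodium-potassium-chloride cotransporter encoded by Slc12a2 loads the cell with chloride. Carbonic anhydrases interconvert carbon dioxide and bicarbonate at a zinc ion held by histidines. The carbonic anhydrase-related proteins have lost part of that site and do not catalyse the reaction.

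Gene counts summed to 3537852 to 4060891 per cortical and 2484717 to 3829804 per subcortical library. All 12 astrocyte markers were found, summing to 58850 to 66790 CPM in cortical libraries and 62460 to 87740 CPM in subcortical ones. Subcortical 3 stood apart: its choroid plexus list summed to 707.6 CPM against 92.27 to 100 CPM in the other subcortical libraries. Ttr, the transthyretin gene of the choroid plexus, made up 611.9 CPM of this sum, against at most 1.92 CPM in the other subcortical libraries. Cortical libraries had 0.23 to 23.82 CPM of Ttr, the most in cortical 1. Folr1, Kl, Kcne2 and Kcnj13 were at 1.05, 0.70, 0.70 and 2.45 CPM in subcortical 3, and the last 3 had no count in any other library. Otx2, also a patterning factor, had 82.33 ± 8.82 CPM in subcortical and 7.52 ± 5.73 CPM in cortical libraries (SD, n = 4), with 69.54 CPM in subcortical 3. Prlr had 9.09 CPM in subcortical 3 and 3.36 to 7.07 CPM in the other subcortical libraries, and Clic6 12.23 CPM against 0 to 7.49 CPM. Clic6 was higher still in cortical 1 and cortical 2, at 13.89 and 18.51 CPM. Cortical 4 held the highest sum of neuronal markers, 704 CPM against 308.4 to 372.6 CPM in the other cortical libraries. Regional log2 differences of the 7 genes and of the pathway genes called by region are also given without subcortical 3.

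**Figure D1:**
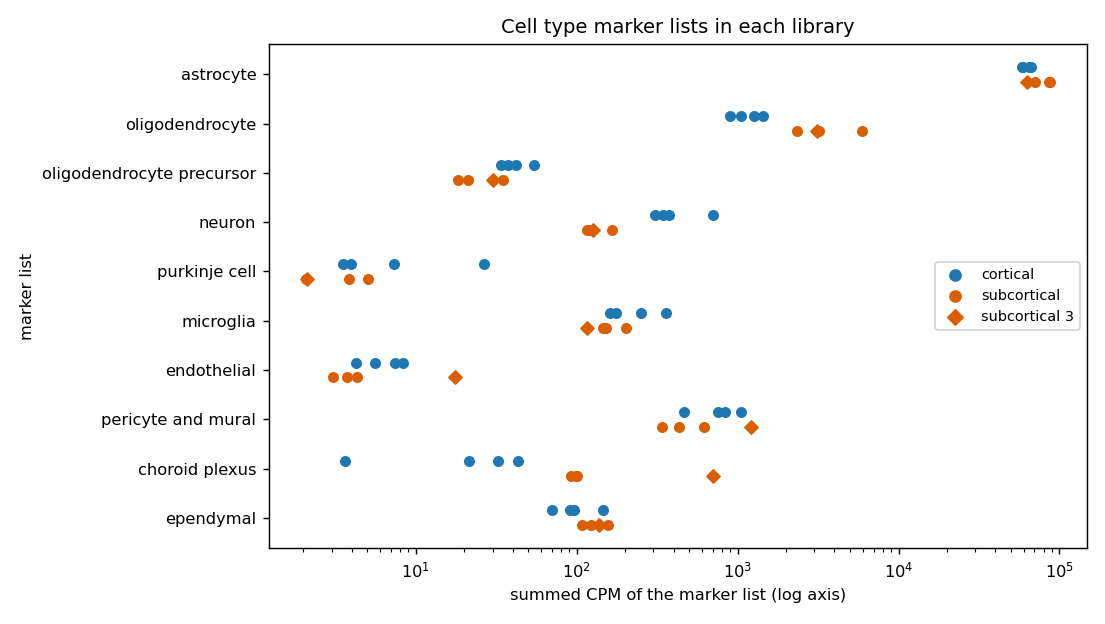
Summed CPM of 10 cell type marker lists in each library on a log axis, 1 point per library, with subcortical 3 as a diamond. The oligodendrocyte sum lay between 2332 and 5921 CPM in subcortical and between 891.4 and 1429 CPM in cortical libraries.

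Promoter sequences of Slc4a4 and Car10 are shown because these were the genes of the set that stood higher in the subcortical library of every mouse. RefSeq windows on GRCm38.p6 were matched for 4 of the 7 genes (Slc4a2, Slc4a3, Slc4a4 and Car10), and coordinates refer to that build, not to the GRCm39 build named for the counts. The 250 bases before each annotated start are printed 5′ to 3′. Capitals mark matches on either strand to the GC box (GGGCGG), the CCAAT box (CCAAT), the E-box (CACGTG), the cAMP response element (TGACGTCA) or the TATA box (TATAAA).
Slc4a4 upstream start, chr5:88887010-88887259, + strand: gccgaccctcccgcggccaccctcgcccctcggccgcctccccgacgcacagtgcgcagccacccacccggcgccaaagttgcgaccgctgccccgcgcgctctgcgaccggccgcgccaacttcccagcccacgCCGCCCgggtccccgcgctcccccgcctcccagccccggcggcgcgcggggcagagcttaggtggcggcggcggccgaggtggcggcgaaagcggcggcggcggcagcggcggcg
Slc4a4 downstream start, chr5:89027716-89027965, + strand: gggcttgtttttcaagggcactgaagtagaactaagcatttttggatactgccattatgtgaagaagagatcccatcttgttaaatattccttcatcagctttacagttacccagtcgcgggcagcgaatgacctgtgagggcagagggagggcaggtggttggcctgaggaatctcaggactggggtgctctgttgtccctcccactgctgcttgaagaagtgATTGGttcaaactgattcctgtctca
Car10 upstream start, chr11:93098116-93098365, + strand: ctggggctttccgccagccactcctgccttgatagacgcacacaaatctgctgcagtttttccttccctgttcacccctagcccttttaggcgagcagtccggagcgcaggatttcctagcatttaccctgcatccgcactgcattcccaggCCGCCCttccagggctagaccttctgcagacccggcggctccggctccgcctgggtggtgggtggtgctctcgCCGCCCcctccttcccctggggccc
Car10 downstream start, chr11:93099040-93099289, + strand: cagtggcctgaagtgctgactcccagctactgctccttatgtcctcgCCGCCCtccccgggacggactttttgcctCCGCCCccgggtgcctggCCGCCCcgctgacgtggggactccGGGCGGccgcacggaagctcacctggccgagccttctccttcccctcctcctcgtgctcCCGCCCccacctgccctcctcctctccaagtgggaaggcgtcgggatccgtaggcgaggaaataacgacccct
The upstream Slc4a4 window was 82.0% G and C with 1 GC box, and the downstream one 48.8% with 1 CCAAT box. The Car10 windows were 64.0% and 68.8% G and C, with 2 and 5 GC boxes. Among all 32851 windows of this length the median was 52.4% G and C, and 32.7% held a GC box and 33.8% a CCAAT box. None of the 4 printed windows held the letters of the E-box, the cAMP response element or the TATA box, which 6.02%, 1.55% and 12.4% of all windows held. Counts of 3′ ends do not tell which of the 2 starts of either gene was used.

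Slc4a4 (ENSMUSG00000060961) encodes the electrogenic sodium bicarbonate cotransporter and was the most abundant of the 7 genes in every library. Its cortical levels in mice 1 to 4 were 1578, 2273, 1662 and 2001 CPM. The subcortical levels of the same mice were 3687, 3889, 2686 and 3762 CPM. Every subcortical library lay above every cortical one, with subcortical 3 the lowest of its region. The means were 1878 ± 320 and 3506 ± 553 CPM (SD, n = 4), a 1.87-fold higher subcortical level. The log2 ratios within mice 1 to 4 were -1.22, -0.77, -0.69 and -0.91 (on CPM + 0.5). The fitted log2 difference was -0.90 (SE 0.16), and -1.01 without subcortical 3. In bulk samples, fewer cells of a type and less RNA per cell cannot be told apart.

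Slc4a4 made up nearly all transcripts of its family. The 10 Slc4 genes summed to 1996 ± 329 CPM in cortical libraries and 3626 ± 539 CPM in subcortical ones (SD, n = 4). Slc4a4 took 94.1 ± 0.976% of that sum in cortical and 96.6 ± 1.05% in subcortical libraries (SD, n = 4).

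Slc4a2 and Slc4a3 encode anion exchangers, which trade bicarbonate for chloride. By the longest open reading frame of their GENCODE transcripts they encode 1237 and 1227 residues. These proteins are 61.7% identical to each other over the aligned residues, and 42.5% and 44.3% identical to that of Slc4a4 (1094 residues).

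Slc4a2 (ENSMUSG00000028962) had 26.79, 26.85, 18.92 and 23.36 CPM in the cortical libraries of mice 1 to 4. Its subcortical levels were 21.64, 20.66, 29.7 and 21.17 CPM. The ranges overlapped: 3 of 4 mice were higher in cortical tissue, and mouse 3, whose subcortical library is the one with high Ttr, was lower. The means were 23.98 ± 3.75 and 23.29 ± 4.29 CPM (SD, n = 4), and the fitted log2 difference was 0.04 (95% interval -0.56 to 0.64). It was 0.18 without subcortical 3 and -0.02 without cortical 1. Slc4a2 is also a known gene of the choroid plexus epithelium. Whether such cells contributed to the value of subcortical 3 was not tested.

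Slc4a3 (ENSMUSG00000006576) varied most between mice among the SLC4 genes of the set. Cortical levels were 32.5, 32.85, 13.31 and 36.61 CPM in mice 1 to 4, and subcortical levels were 24.55, 12.49, 23.76 and 7.24 CPM. Cortical 3 was the low cortical library, and the ranges overlapped. The coefficient of variation was 36.4% over cortical and 50.1% over subcortical libraries, against 17.0% and 15.8% for Slc4a4. The means were 28.82 ± 10.5 and 17.01 ± 8.53 CPM (SD, n = 4). The fitted log2 difference was 0.76 (95% interval -0.05 to 1.57), with 0.98 without subcortical 3 and a lowest value of 0.50 without subcortical 4.

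Slc12a2 (ENSMUSG00000024597) encodes the sodium-potassium-chloride cotransporter, the protein that brings chloride in. It had 36.47, 35.98, 33.4 and 18.06 CPM in the cortical and 42.03, 17.78, 44.73 and 28.42 CPM in the subcortical libraries of mice 1 to 4. Cortical 4 and subcortical 2 were low, and the ranges overlapped widely. Subcortical 3, the library with high Ttr, had the highest level, just ahead of subcortical 1. Slc12a2, like Slc4a2, is also known from the choroid plexus, and whether such cells contributed was not tested. The means were 30.98 ± 8.71 and 33.24 ± 12.5 CPM (SD, n = 4). The fitted log2 difference of -0.11 (95% interval -0.76 to 0.54) had no stable sign: it was 0.07 without subcortical 3, and 0.08 on plain library totals. On that scaling the median gene moved from -0.01 to 0.19, a shift of 0.20, and relative to the median gene Slc12a2 stood at -0.10 and -0.11.

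**Figure D2:**
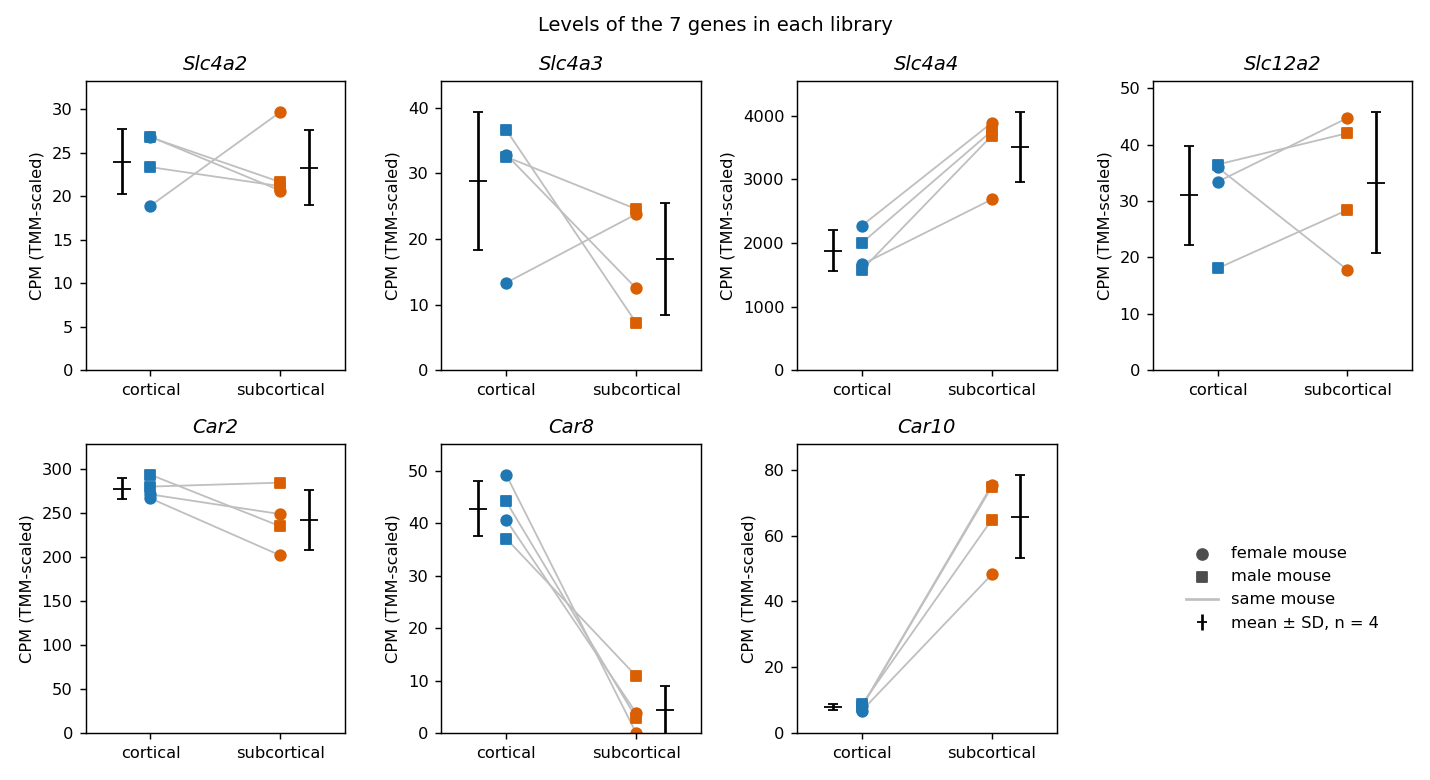
CPM of each of the 7 genes in cortical (blue) and subcortical (orange) libraries, 1 panel per gene with its own linear axis from 0, grey lines joining the libraries of a mouse, circles for female and squares for male mice, and the mean ± SD of 4 libraries. Ranges of Slc4a4, Car8 and Car10 are separate, and those of the other 4 genes overlap.

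Car2 (ENSMUSG00000027562) encodes the cytosolic carbonic anhydrase, a very fast enzyme, and was the most abundant of its family. Cortical levels were 280.1, 266.7, 271.2 and 293.6 CPM in mice 1 to 4. Subcortical levels were 284.6, 201.8, 248.8 and 234.9 CPM. The cortical libraries lay close together, with a coefficient of variation of 4.27% against 14.1% in subcortical libraries, and the ranges overlapped through subcortical 1. The means were 277.9 ± 11.9 and 242.5 ± 34.3 CPM (SD, n = 4), and the fitted log2 difference was 0.20 (95% interval -0.14 to 0.53), or 0.21 without subcortical 3. Car2 is also known from oligodendrocytes. Markers of those cells summed to 2332 to 5921 CPM in subcortical against 891.4 to 1429 CPM in cortical libraries (9 of 11 fell in cortical relative to subcortical libraries by the test across all genes). Subcortical 1 had the highest sum (5921 CPM) and the highest subcortical Car2, and subcortical 2 the second-highest sum (3213 CPM) and the lowest Car2. The part of these cells in the Car2 level was not tested.

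Car8 (ENSMUSG00000041261) encodes a carbonic anhydrase-related protein known from cerebellar Purkinje cells, where it binds the inositol trisphosphate receptor. Cortical levels were 44.16, 49.27, 40.65 and 37.09 CPM in mice 1 to 4. Subcortical levels were 2.91, 0, 3.84 and 10.87 CPM, from 7, 0, 11 and 39 counts. All cortical libraries lay above all subcortical ones, and subcortical 4 was the highest of its region. The means were 42.79 ± 5.20 and 4.41 ± 4.61 CPM (SD, n = 4), a 9.71-fold higher cortical level. With a floor of 3 counts per library, 1.44 CPM in subcortical 2, mouse 2 was at least 34.2-fold higher in cortical tissue. The fitted log2 difference was 3.16 (SE 0.50), and 3.07 without subcortical 3. It rested in part on 1 library: without subcortical 4 it was 4.15, and without subcortical 2 it was 2.81.

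Car8 is known from neurons, so their markers are given beside it. The Purkinje markers Pcp2 and Ppp1r17 had no count in any of the 8 libraries, and the 5 listed Purkinje genes summed to 3.50 to 26.49 CPM in cortical libraries and 2.08 to 5.02 CPM in subcortical ones. Neuronal markers summed to 308.4 to 704 CPM in cortical libraries and 116.5 to 166 CPM in subcortical ones, with 3 of 12 tested higher and 1 lower in cortical libraries. The markers of cortical excitatory neurons Nrgn, Camk2a and Slc17a7 had 22.4-fold, 14.5-fold and 13.8-fold higher mean levels in cortical libraries, the direction of Car8, while Nefl and Nefm had lower ones. Within the cortical libraries, cortical 4 had the highest sums of both lists and the lowest Car8 level. Its Purkinje sum of 26.49 CPM came from Itpka alone. The part of neurons in the Car8 level was not tested.

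Car10 (ENSMUSG00000056158) encodes a secreted carbonic anhydrase-related protein that binds neurexins, and its levels were the reverse of those of Car8. Cortical levels were 7.94, 8.08, 6.77 and 8.67 CPM in mice 1 to 4. Subcortical levels were 74.9, 75.45, 48.22 and 64.92 CPM. The ranges lay far apart, and both regions were even, with coefficients of variation of 10.1% and 19.3%. The means were 7.87 ± 0.794 and 65.87 ± 12.7 CPM (SD, n = 4), an 8.37-fold higher subcortical level. Log2 ratios within mice 1 to 4 were -3.16, -3.15, -2.74 and -2.83. The fitted log2 difference was -3.06 (SE 0.27), and -3.18 without subcortical 3. By size this was the 33rd most subcortical of the 11781 genes tested.

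The ranges of the regions were separate for 3 of the 7 genes (Slc4a4, Car8 and Car10), while 12.2% of all tested genes had separate ranges. The set was chosen on these values, so nothing is read from that share.

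Transcripts of the carbonic anhydrase family were summed to show what share each gene took. The 16 genes summed to 384.6 ± 14.3 CPM in cortical libraries and 420.6 ± 68.2 CPM in subcortical ones (SD, n = 4). Car2 took 72.3 ± 3.86% of the sum in cortical and 57.9 ± 3.58% in subcortical libraries (SD, n = 4). Car8 took 11.1 ± 1.16% and 1.03 ± 1.11%, and Car10 took 2.04 ± 0.163% and 15.9 ± 3.86% (SD, n = 4). The related proteins Car8, Car10 and Car11 together summed to 63.4 ± 13.2 CPM in cortical libraries and 84.46 ± 9.48 CPM in subcortical ones, and the 13 other genes to 321.2 ± 7.25 and 336.1 ± 66.6 CPM (SD, n = 4).

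**Figure D3:**
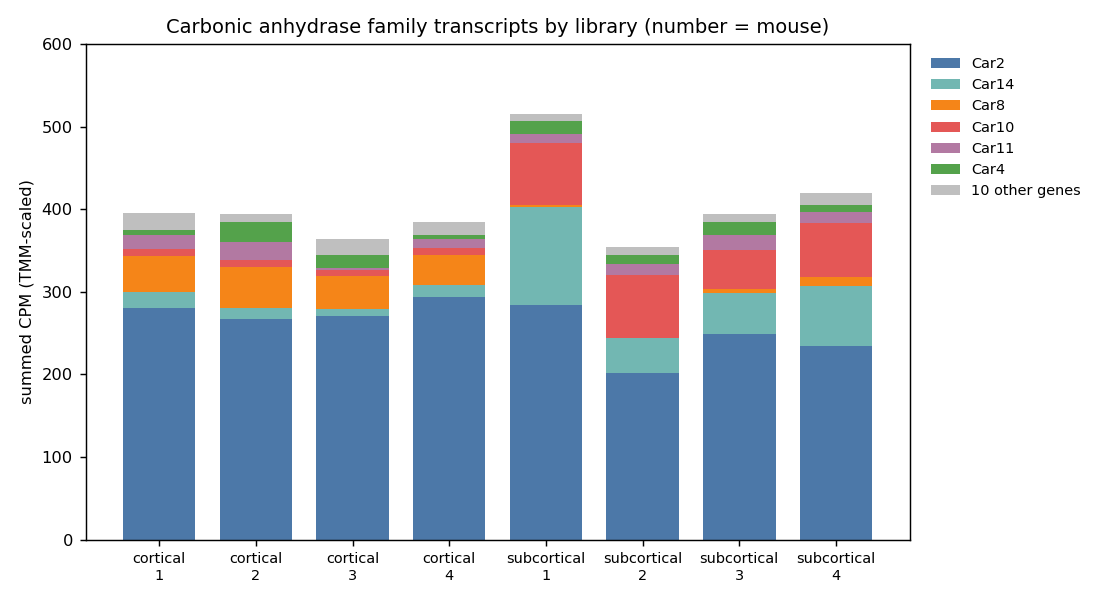
Stacked bars of summed CPM of the 16 carbonic anhydrase family genes in each of the 8 libraries, coloured by gene, with 10 genes of low level joined in grey. Car8 (orange) is seen mainly in the cortical bars, Car10 (red) and Car14 (teal) mainly in the subcortical ones, while Car2 (blue) is the tallest segment in all 8.

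The proteins differ at the zinc site. Aligned to Car2 (260 residues), the Car8 protein (291 residues) was 44.0% identical and kept 2 of the 3 zinc-binding histidines. The Car10 protein (328 residues) was 34.8% identical and kept 1 of 3. Car14, a membrane-bound enzyme with its active site outside the cell, has 337 residues, and was 37.6% identical over the 250 aligned residues and kept all 3.

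Other genes of bicarbonate, proton and chloride handling were tested between the regions by edgeR (quasi-likelihood, p adjusted by Benjamini-Hochberg over all genes). Of 71 listed genes 70 were matched and 29 passed the filter. In cortical libraries 2 of the 29 were higher and 1 was lower, and 26 were not called. Over all 11781 genes 3.42% were higher and 3.39% lower. The median log2 difference was -0.04 for the 29 genes and -0.01 for all genes. With edgeR, 7 of the 29 had an unadjusted p under 0.05, as did 17.4% of all 11781 genes.

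Car14 was the gene that fell. It had 19.35, 14.34, 7.94 and 14.21 CPM in the cortical and 117.8, 42.77, 50.32 and 72.16 CPM in the subcortical libraries of mice 1 to 4. The ranges were separate and all 4 mice were lower in cortical tissue. The means were 13.96 ± 4.67 and 70.75 ± 33.7 CPM (SD, n = 4), and the log2 difference was -2.34 (SE 0.33, edgeR adjusted p = 5.3e-05), or -2.47 without subcortical 3. The oligodendrocyte sum of the subcortical libraries was 5921, 3213, 3102 and 2332 CPM in mice 1 to 4. Subcortical 1 was thus highest in both, but subcortical 2 was second in the sum and lowest in Car14, and subcortical 4 lowest in the sum and second in Car14. The part of those cells in the level of Car14 was not tested. The other 3 tested carbonic anhydrases were not called: Car11 had 12.74 ± 8.46 and 14.18 ± 2.91 CPM, the membrane-anchored Car4 12.68 ± 9.29 and 12.81 ± 3.56 CPM, and the mitochondrial Car5b 13.56 ± 5.85 and 5.73 ± 2.77 CPM (cortical and subcortical, SD, n = 4).

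Of the chloride cotransporters and their kinases, 1 of 7 rose and none fell. Wnk2, a kinase of the family that regulates the cation-chloride cotransporters, had 62.66 ± 19.7 CPM in cortical libraries and 28.65 ± 5.89 CPM in subcortical ones (SD, n = 4), higher in cortical tissue in 4 of 4 mice. The log2 difference was 1.13 (SE 0.27, edgeR adjusted p = 0.0088), but without cortical 3 the adjusted p was 0.069. It was 0.99 without subcortical 3 (edgeR adjusted p = 0.035). Wnk1 (164.2 ± 24.2 and 205.4 ± 11.2 CPM), Slc12a4 (185.0 ± 24.9 and 227.7 ± 51.1 CPM), a potassium-chloride cotransporter, and Slc12a9 (172.8 ± 31.1 and 131.2 ± 28.7 CPM) were not called (SD, n = 4).

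Of the partners and sensors, 1 of 7 rose and none fell. Slc9a3r1, a PDZ-domain scaffold that ties transporters to ezrin, had 203.7, 157.2, 179.2 and 177.8 CPM in cortical and 104.4, 86.02, 122.3 and 106.1 CPM in subcortical libraries. The ranges were separate. The means were 179.5 ± 19.0 and 104.7 ± 14.9 CPM (SD, n = 4). The log2 difference was 0.77 (SE 0.17, edgeR adjusted p = 0.0061), or 0.86 without subcortical 3. Ahcyl1, whose protein binds and activates the Slc4a4 carrier, had 509.4 ± 48.2 and 705.8 ± 201 CPM (SD, n = 4) and was not called (edgeR adjusted p = 0.15). Its relative Ahcyl2 had 35.7 ± 4.66 and 50.46 ± 13.1 CPM, and Ptprz1, a receptor phosphatase with a carbonic anhydrase-like domain, 1112 ± 130 and 1143 ± 115 CPM (SD, n = 4), neither called.

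Among the remaining bicarbonate transporters, 0 of 6 tested were called by edgeR, with 1 at an unadjusted p under 0.05 and 1 called by DESeq2. That gene was Slc26a6, an anion exchanger, with 43.55 ± 10.5 CPM in cortical libraries and 23.74 ± 6.33 CPM in subcortical ones (SD, n = 4), a log2 difference of 0.88 (edgeR adjusted p = 0.066, DESeq2 adjusted p = 0.041, and 0.019 to 0.24 over all alternatives). The sodium-coupled carriers Slc4a7 (37.54 ± 5.91 and 42.08 ± 7.0 CPM) and Slc4a8 (26.08 ± 15.2 and 35.79 ± 6.07 CPM) were not called (SD, n = 4). Among proton carriers 0 of 5 were called by edgeR and 0 by DESeq2, with 1 at an unadjusted p under 0.05. Slc16a1, a carrier of lactate with a proton, had 74.14 ± 15.9 and 113.4 ± 23.8 CPM (SD, n = 4), a log2 difference of -0.61 (edgeR adjusted p = 0.09). The endosomal sodium-proton exchanger Slc9a9 had 30.73 ± 10.2 and 35.02 ± 9.10 CPM (SD, n = 4).

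**Figure D4:**
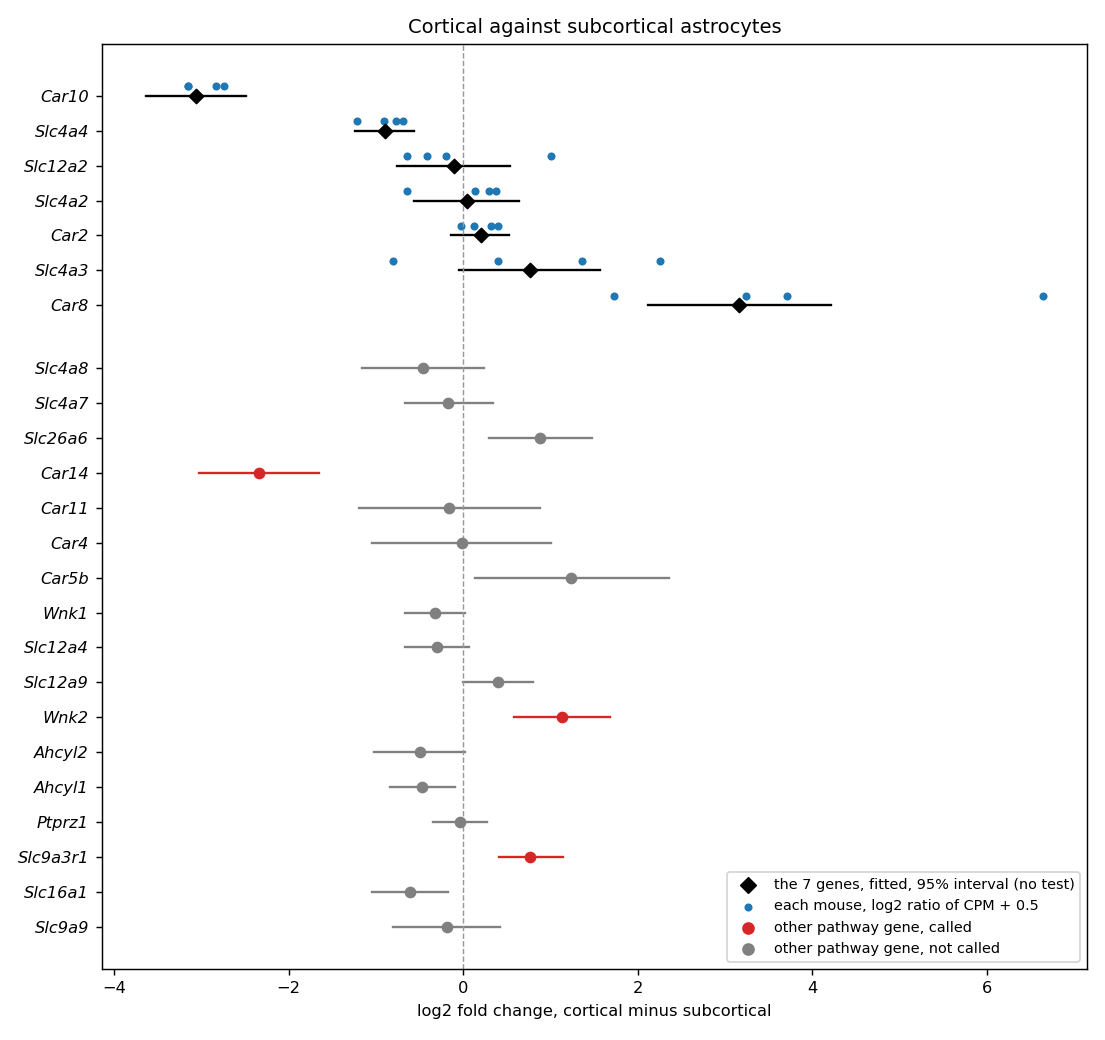
Log2 fold change, cortical minus subcortical, for the 7 genes (black diamonds, untested, with each mouse's ratio as a blue dot) and other named pathway genes (red where called, grey where not), with 95% intervals. Car10 at -3.06 and Car8 at 3.16 mark the ends of the range of fitted values.

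Sex had no part in the choice of the genes and was tested on counts summed over both regions of each mouse, 2 female against 2 male. Of 13402 genes, 0.0373% were called. None of the 7 genes was called by edgeR's quasi-likelihood test or by DESeq2, and 0 had an unadjusted p under 0.05. The edgeR adjusted p was 0.999 for each of the 7. Slc4a4 had 2872 and 2101 CPM in female mice 2 and 3 and 2392 and 2833 CPM in male mice 1 and 4, a log2 difference, female minus male, of -0.07 (95% interval -0.45 to 0.31). Intervals of the other genes ran from -0.62 to 0.68 for Slc4a2, -0.98 to 0.42 for Slc4a3 and -0.52 to 0.82 for Slc12a2. They ran from -0.49 to 0.27 for Car2, -0.51 to 0.74 for Car8 and -0.90 to 0.32 for Car10. With 2 mice per sex, differences inside these intervals are not excluded, and larger ones could also go uncalled after adjustment over all genes.

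Whether the regional difference itself differed between the sexes was tested as an interaction, which called 0% of 13334 genes. None of the 7 genes was called by edgeR or DESeq2, and 0 had an unadjusted p under 0.05 with edgeR. Car8 had the widest interval, with female means of 44.96 cortical and 1.92 subcortical CPM and male means of 40.63 and 6.89 CPM. Its log2 interaction was 1.89 (95% interval -0.07 to 3.85, edgeR unadjusted p = 0.0583, adjusted p = 1). With the mouse as replicate block the edgeR unadjusted p was 0.0369 and the adjusted p again 1. For Slc4a4 the interaction was 0.33 (-0.34 to 1.00) and for Car10 it was 0.03 (-1.16 to 1.21). It was -0.37 for Slc4a2, -0.81 for Slc4a3, 0.51 for Slc12a2 and 0.12 for Car2.

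**Figure D5:**
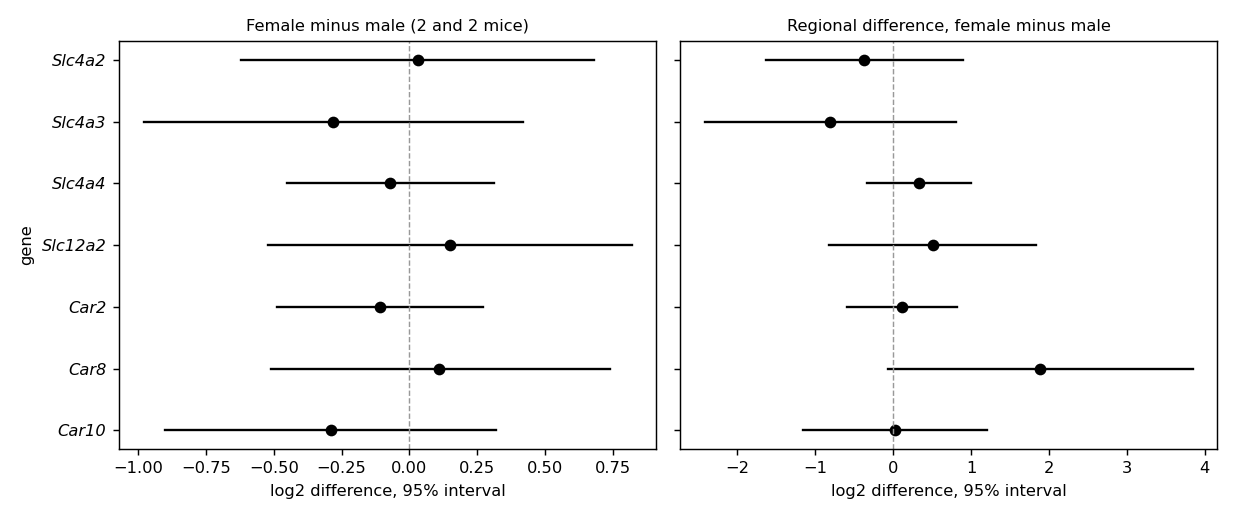
Log2 difference between female and male mice (left, 2 mice per sex) and of the regional difference between the sexes (right) for each of the 7 genes, points with 95% intervals. Every interval includes 0, and that of Car8 on the right, -0.07 to 3.85, comes closest to leaving it out.

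The genes whose levels followed each of the 7 most closely were ranked by Pearson correlation of log2(CPM + 1) over the 8 libraries. These are descriptions over points that share 2 regions and 4 mice. The genes named for each had the highest correlations among 7976 candidate genes. How high a correlation chance alone would give among so many genes over 8 libraries was not tested. Car10 was followed by Pax3, Foxb1 and Fzd10 (r of 0.993, 0.989 and 0.987), of which Pax3 and Foxb1 encode transcription factors and Fzd10 a Wnt receptor. Slc4a4 was followed by Susd4, Chpt1 and Adra2a (0.979, 0.974 and 0.971), the last an adrenergic receptor, and Car8 by Idh2, Hhatl and Prpf8 (0.982, 0.98 and 0.978). Car2 was followed by Fez1, Hdac6 and Shmt2 (0.977, 0.97 and 0.964). Slc12a2 was followed by Cox5a, Frmd8 and Keap1 (0.982, 0.959 and 0.954). Slc4a3 was followed by Frem2, Rundc1 and Notch1 (0.971, 0.953 and 0.948), and Slc4a2 by Mrpl30, Herpud2 and Chpf2 (0.916, 0.907 and 0.896). Among the 7 genes themselves, Slc4a4 and Car10 had r = 0.94, and Car8 had r = -0.90 with Car10 and -0.83 with Slc4a4.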

How the data were processed

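RNA of astrocytes sorted from cortical and subcortical tissue of 4 mice was made into 3′ libraries with the QuantSeq forward kit, per the labels' protocols. Tools in the submitters' processing notes are STAR 2.6.0, HTSeq 0.9.0, FastQC 0.11.5 and DESeq2 1.35.0, with the build GRCm39. The sources used here give no settings, strand or molecular identifiers, which leaves overlapping and near-identical genes uncertain. The values the authors deposited are whole-number counts of reads per gene. A deposited table of 8 normalized columns was not used. Reads without a feature (30.2 to 40.7%) stayed out of library sizes. Symbols were matched for 52083 of 55417 identifiers.

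The tests used edgeR 4.0.16 under R 4.3.3, after filterByExpr (at least 10 counts, size-scaled, in 4 libraries by region, and 15 in total), with TMM, quasi-likelihood fits and Benjamini-Hochberg adjustment at 0.05. Alternatives were DESeq2 1.42.0, limma 3.58.1 (voom), other scalings and filters, each library left out, and the mouse as replicate block. The fit without the block was the main one. The same mouse number is the same animal, so the numbers pair the libraries. After removing region means, libraries correlated at 0.0247 to 0.0656 within a mouse and at -0.0935 to 0.0522 between mice. Ratios within a mouse used CPM + 0.5. Only for folds given as at least a value, a count of 0 was set at 3 counts, 0.701 to 1.44 CPM in a single library. Means, sums and fits kept such counts as they were. Intervals on the fits are 95%, and the floor covers counting error only. Replicates differed beyond counting noise, with a chi-square of 12.2 to 25.2 for each degree of freedom. Proteins are the longest open reading frames of GENCODE M21 transcripts, aligned with Biopython 1.88.

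The 7 genes and all lists were chosen with earlier results of these data known. Named genes are the 7, the pathway genes called by region, up to 3 uncalled genes per list with the highest mean CPM, and for each of the 7 the 3 genes of at least 10 CPM with the highest correlation. A pathway gene that this rule names is not reported here.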

Additional observations from a re-analysis of the deposited data

Results flagged for a closer look

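Of 40 groups of 4 libraries checked, 7 had a highest or lowest library whose gap to its nearest neighbour exceeded Dixon's critical value. Chance gives about 5% of groups. The groups share the same libraries and are not independent, so nothing is read from the count of 7. Genes of the set were among the 7. Slc4a2 had 29.7 CPM in subcortical 3, against 20.66 to 21.64 CPM in the other subcortical libraries. Slc4a4 had 2686 CPM in subcortical 3, against 3687 to 3889 CPM. Slc12a2 had 18.06 CPM in cortical 4, against 33.4 to 36.47 CPM in the other cortical libraries.

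The other 4 were marker lists in the same libraries. In cortical 4 the neuronal list summed to 704 CPM, against 308.4 to 372.6 CPM, and the Purkinje list to 26.49 CPM, against 3.50 to 7.3 CPM, all of it from Itpka. In subcortical 3 the endothelial list summed to 17.47 CPM, against 3.07 to 4.33 CPM, and the choroid plexus list to 707.6 CPM, against 92.27 to 100 CPM.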

How the results depend on the processing

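Of 519 alternative values for single genes, 40 had the opposite sign, 5 gained a call and 1 lost one. The 40 include 4 each for Slc4a2 and Slc12a2 by region, whose values lie near 0. Slc4a4, Car8 and Car10 kept their regional direction under every alternative run. With plain library totals, 682 genes were higher and 244 lower in cortical libraries (73.7% higher of those called, against 50.2% with TMM), and the pathway genes higher numbered 4, as they did without the filter (4). Relative to the median gene the 7 genes moved by at most 0.02. On these totals Slc4a7 (0.03), Car11 (0.04), Car4 (0.17), Ptprz1 (0.17) and the Car10 interaction (-0.03) turned direction. Leaving out each library gave 1 to 3 pathway genes higher, the lowest without cortical 3. With the mouse as replicate block 885 genes were called against 802, of which 770 were shared, and the paired fit changed no pathway call (Car14, Wnk2 and Slc9a3r1).

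By sex, cortical libraries alone gave -0.14 for Slc4a2 and 0.13 for Slc4a4, and subcortical ones 0.23 for Slc4a3, -0.14 for Slc12a2 and -1.75 for Car8. Leaving out 1 library, the regional values ranged from -0.54 to 0.19 for Car11, -0.56 to 0.25 for Car4 and -0.12 to 0.02 for Ptprz1. Leaving out 1 mouse, those by sex ranged from -0.05 to 0.11 for Slc4a2, -0.31 to 0.14 for Slc4a4, -0.19 to 0.58 for Slc12a2 and -0.04 to 0.25 for Car8. The interaction ranged from -0.87 to 0.13 for Slc4a2, -1.99 to 0.23 for Slc4a3 and -0.05 to 1.36 for Slc12a2. For Car2 it ranged from -0.05 to 0.27, and for Car10 from -0.16 to 0.25. The cause of these turns was not tested. The Car8 interaction kept its sign, from 0.46 without mouse 4 to 7.85 without mouse 3. Without mouse 3 the only female subcortical library was subcortical 2, with a Car8 count of 0, so 7.85 is not a measured fold. Car8 in subcortical libraries rests on 57 counts in all, which limits its fold.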

Other observations

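Of the 70 matched pathway genes 41 did not pass the filter and were not tested, and 13 of them had no count in any library. The following were picked after their values were seen. Chp2, a calcineurin B-like cofactor of sodium-proton exchangers, had 53 counts over the cortical and 0 over the subcortical libraries, at least 11.9-fold higher in cortical libraries with a floor of 3 counts over the group. Cortical 4 also had none, and the bound ranged from 7.96-fold to 15.9-fold with each library left out. Slc4a5, a sodium bicarbonate cotransporter, had 0 counts over the cortical and 21 over the subcortical libraries, at least 10.4-fold higher in subcortical libraries with the same floor. These were 7 counts in subcortical 3 and 14 in subcortical 4, and the bound was 9.42-fold without subcortical 3 and 5.18-fold without subcortical 4, alternatives chosen after seeing the data. Slc12a7, a potassium-chloride cotransporter, had 94 cortical and 7 subcortical counts, 5.88 ± 3.80 and 0.606 ± 0.522 CPM (SD, n = 4), and its ranges were separate.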
